A study of Sus scrofa with 19 samples.

Results

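Interferon-induced and interferon signalling genes were followed in endometrium (the inner lining of the womb) from gilts, which are young female pigs. The set was taken by gene symbol: interferon ligands and receptors, the JAK and TYK2 kinases, STAT and interferon regulatory factors, guanylate binding proteins, RNA sensors, antiviral effectors and the TRIM family. Of 3123 named genes on the array, 61 matched. A gene counted as measured when its signal was well above background on at least 4 of the 19 arrays, which held for 57 of the 61 genes, among 3010 named genes measured in all. The 4 genes below that limit were the interferon ligands IFNB1, IFN-OMEGA-5 and IFN-DELTA-8, well above background on 0 arrays, and IFN-OMEGA-3, on 1 array. Just inside it stood IFN-OMEGA-7, on 4 arrays, and TRIM10 was next with 12. The other 55 genes were well above background on all 19 arrays.

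Interferons are secreted proteins that bind paired receptor chains at the cell surface. The receptors carry Janus kinases, which phosphorylate STAT proteins. Type I and type II interferons use partly different STAT complexes, and both switch on a large set of antiviral and antigen presentation genes. In the pig uterus, the elongating conceptus secretes interferons gamma and delta around implantation, and estradiol of conceptus origin is the accepted signal for the recognition of pregnancy.

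Per the labels, crossbred gilts aged 8 months had both uterine horns cannulated (days 8 to 9 of the cycle). Infusions followed every 4 h over 24 h on days 11 to 12 after estrus began. The hormone horns, 6 arrays from 6 treated gilts, received 200 µg of prostaglandin E2 (PGE2) and 33.3 µg of estradiol (E2) with each infusion. The placebo horns, 5 arrays, were the opposite horns of 5 of these gilts and were infused with vehicle alone, 5 mL at a time of saline holding 1% ethanol by volume. The control gilts, 4 animals with 8 arrays, received the vehicle in both horns, so all groups share the surgery, the cannulas and the infused fluid. The hormone horn was chosen at random per the labels, yet all 5 placebo horns carry the mark L and 5 of the 6 hormone horns the mark P. The labels do not explain these marks, and gilt 40 contributed only a hormone horn, marked L. The gilt is the replicate throughout. All values are log2 signal relative to the array's 75th percentile, so 0 is the brightness of that percentile, and levels of different probes are not comparable.

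Tissue markers were followed for epithelium (7 of 7 on the array measured), uterine genes (8 of 8), stroma and endothelium (5 of 5 each). Their being measured does not test the tissue label, since 3010 of the 3123 named genes on the array were measured. In hormone horns 3 epithelial markers, 2 uterine genes, 2 stromal and 4 endothelial markers passed higher than in control gilts, beside 13.2% of all named genes. The median difference was 0.11 over the epithelial markers, 5 of 7 of which lay above 0, 0.45 over the uterine genes, 0.39 over the stromal and 0.79 over the endothelial markers. Leukocyte markers differed between the groups as well. Neutrophil markers, 5 genes, had a median per array of 2.04 to 6.81 in hormone horns, -0.76 to 7.67 in placebo horns and -0.90 to 0.57 in control gilts, as log2 differences from the control mean, and 3 of the 5 passed higher in hormone horns (S100A8, S100A9 and S100A12). Macrophage and dendritic cell markers, 12 genes, had medians of 0.16 to 2.24 in hormone horns, 0.19 to 2.42 in placebo horns and -0.39 to 0.23 in control gilts, and 3 of the 12 passed higher in hormone horns (LYZ, CD14 and MRC1). T and NK cell markers, 14 genes, reached a median of 2.45 in the hormone horn and 2.40 in the placebo horn of gilt 47, and at most 0.49 and 0.48 in the other hormone and placebo horns, against 0.26 at most in control gilts. None of the 14 passed higher, and 1 passed lower in hormone horns. In this bulk tissue, more or fewer cells of a type and more or less RNA per cell cannot be told apart, and the part of these cells in the interferon gene results was not tested.

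In hormone horns against control gilts, 10 of the 57 interferon genes passed at an adjusted p under 0.05, 9 higher and 1 lower. This was 17.5% of the set, beside 15.5% of all named genes measured and 11.8% of all probes, so the share was near the background. Higher calls were made for 13.2% of named genes and 6.9% of probes, and lower calls for 2.39% and 4.88%. The median log2 difference was 0.04 over the interferon genes and 0.17 over all named genes. Of 7 STAT genes, 5 passed higher, and of 4 receptor chains, 2 passed higher. Of 14 antiviral effectors and other induced genes, only IFI30 passed, and 9 of the 14 had a difference below 0. Neither guanylate binding protein, none of 5 interferon regulatory factors, none of 3 kinases and neither RNA sensor passed.

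**Figure D1:**
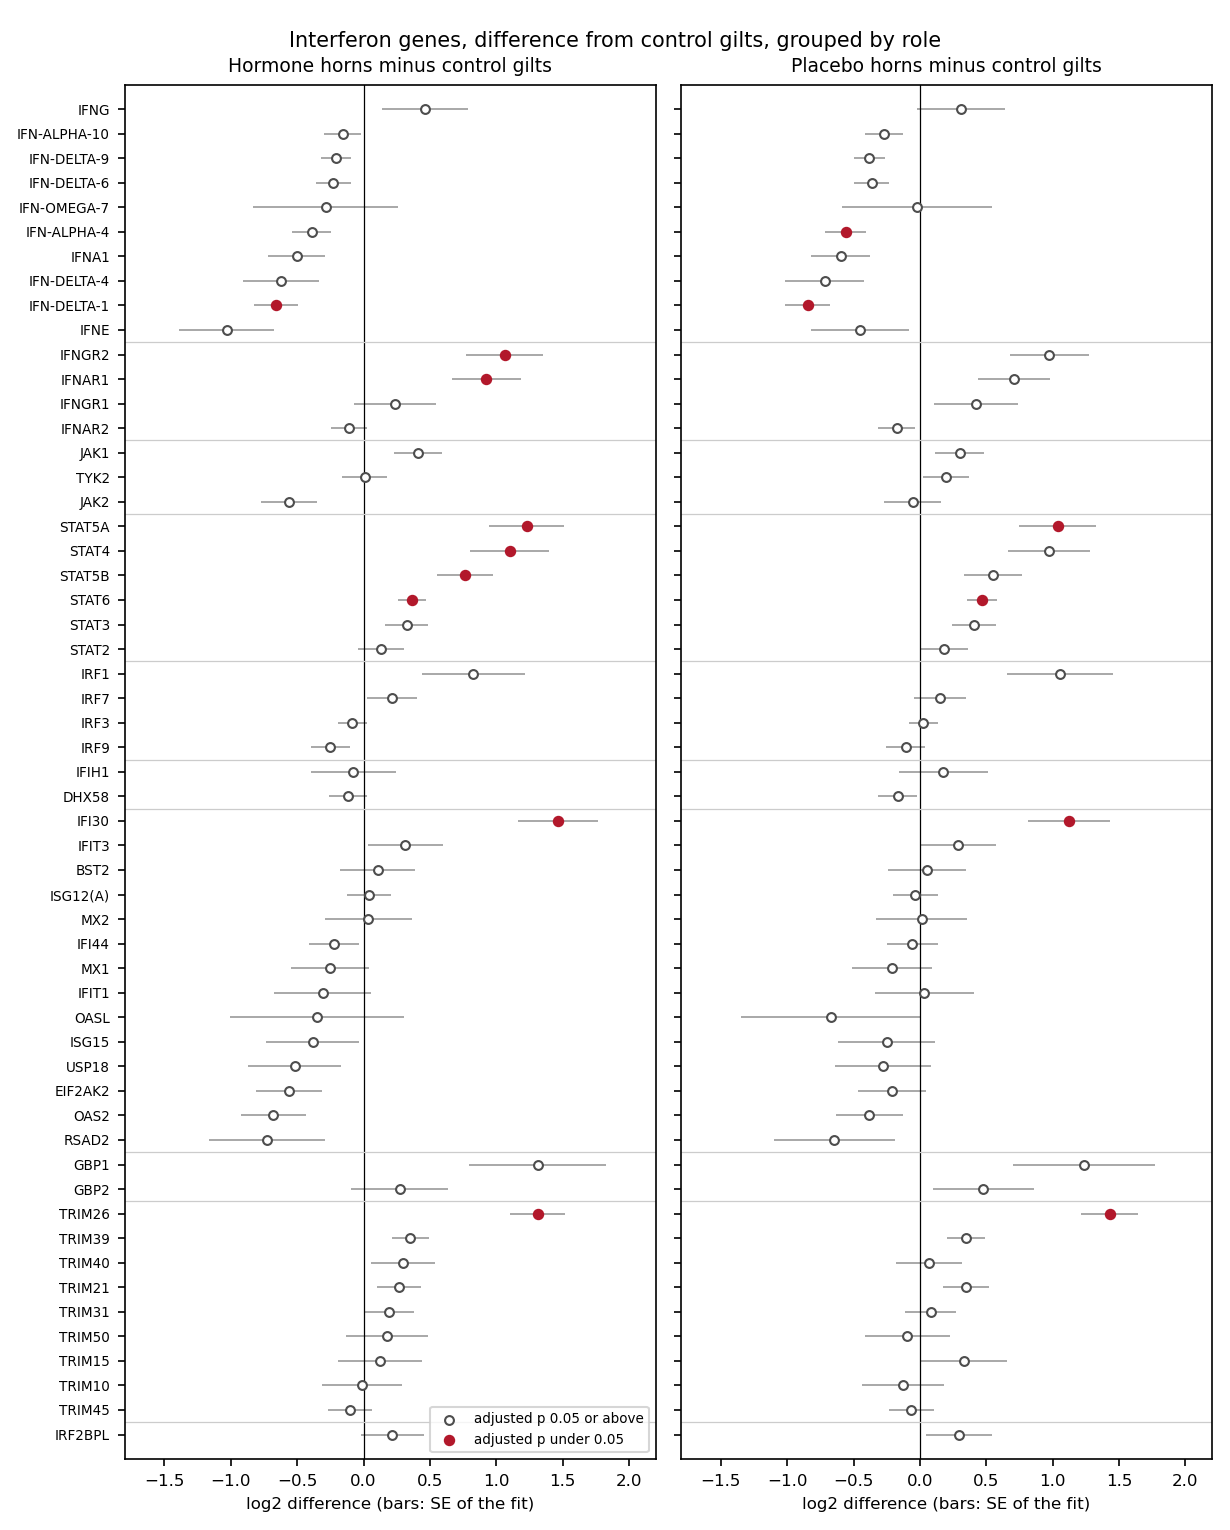
Log2 difference from control gilts of 55 of the 57 interferon genes, in hormone horns (left) and placebo horns (right), with the standard error of the fit as bars; genes run down the page by role, and both panels share the same control arrays. Filled points passed at an adjusted p under 0.05: 9 of the genes drawn in hormone horns and 6 in placebo horns.

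Among the ligands, 10 genes were measured and 9 had a difference below 0, with a median of -0.34. The exception was IFNG, the gene of interferon gamma, at 0.46 ± 0.32 (SE, adjusted p = 0.378). IFN-DELTA-1, a type I interferon of the delta group, was the one ligand that passed. Its level was -3.11 at the lowest, -2.38 at the median and -2.05 at the highest in hormone horns. In placebo horns it was -2.48, -2.45, -2.54, -2.59 and -3.36 in gilts 36, 38, 41, 44 and 47. The 8 control arrays lay between -1.96 and -1.67 with a median of -1.81, so neither kind of horn in treated gilts overlapped the controls. The difference was -0.66 ± 0.17 in hormone horns (adjusted p = 0.0172) and -0.85 ± 0.17 in placebo horns (adjusted p = 0.0212). The lowest values of both groups came from gilt 47, and without that gilt the differences were -0.53 (adjusted p = 0.0110) and -0.69 (adjusted p = 0.0256).

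IFN-ALPHA-4, an alpha interferon, was -3.67, -3.88, -3.62, -3.82 and -4.43 in placebo horns, all under the control range of -3.49 to -3.17. It fell by 0.56 on the log2 scale there (adjusted p = 0.0460). In hormone horns its difference was -0.39 ± 0.15 (adjusted p = 0.0929), with arrays from -4.27 to -3.34, of which only gilt 36 lay inside the control range. IFN-ALPHA-10, IFN-DELTA-4, IFN-DELTA-6, IFN-DELTA-9, IFN-OMEGA-7 and IFNA1 had differences between -0.62 and -0.16 in hormone horns, and none passed. Type I interferon genes sit close together on chromosome 1 of the Sscrofa11.1 annotation, and genes within a group, such as alpha or delta, are similar copies. A probe may therefore read more than the gene it is named for. Probe sequences were not checked, so these values are uncertain as to gene.

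IFNE, the epithelial type I interferon of the female reproductive tract, had -1.56 at the lowest, 0.40 at the median and 0.92 at the highest in hormone horns. The placebo horns had -0.05, 1.16, 0.46, 1.32 and 0.36, and control gilts ran from 0.42 to 1.62 with a median of 1.27. Of the hormone horns 3 lay within the control range and 3 below it, and the hormone horn of gilt 36 stood far below all other arrays. The difference was -1.03 ± 0.36 in hormone horns (adjusted p = 0.0685) and -0.45 ± 0.37 in placebo horns (adjusted p = 0.479), and neither passed. Without gilt 36 the hormone difference was -0.69 (adjusted p = 0.111).

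IFNG itself was dim in all groups. It ran from -4.66 to -2.82 in hormone horns with a median of -4.26, was -4.67, -4.56, -4.43, -4.63 and -2.85 in placebo horns, and ran from -5.05 to -3.63 in control gilts. Both horns of gilt 47 stood above every other array. Without gilt 47 the difference was 0.21 in hormone horns and -0.00460 in placebo horns.

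Of the receptor chains, IFNAR1 and IFNGR2 passed in hormone horns, while IFNAR2 and IFNGR1 did not. IFNGR2, the signalling chain of the interferon gamma receptor, was 0.76 at the lowest, 1.62 at the median and 2.73 at the highest in hormone horns. It was 0.84, 1.69, 1.79, 1.21 and 2.93 in placebo horns, and 0.42 to 0.80 with a median of 0.63 in control gilts. Only gilt 40 among the hormone horns fell inside the control range, and no placebo horn did. The difference was 1.06 ± 0.29 in hormone horns, a 2.09-fold higher signal (adjusted p = 0.0252), and 0.97 ± 0.30 in placebo horns (adjusted p = 0.0651).

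IFNAR1, a chain of the type I receptor, was -0.91 at the lowest, 0.35 at the median and 0.81 at the highest in hormone horns. Its placebo horn values were -0.12, 0.48, 0.01, -0.53 and 0.82, against a control range of -1.09 to -0.31 with a median of -0.69. Gilt 40 again lay inside the control range, as did the placebo horn of gilt 44. The difference was 0.92 ± 0.26 in hormone horns (adjusted p = 0.0292), 0.71 ± 0.27 in placebo horns (adjusted p = 0.123), and 1.00 at a second IFNAR1 probe in hormone horns (adjusted p = 0.0160). IFNAR2, its partner chain, differed by -0.11 ± 0.13 in hormone horns (adjusted p = 0.635). IFNGR1, which binds interferon gamma, differed by 0.24 ± 0.31 (adjusted p = 0.665), and its other 3 probes by 0.38 to 0.67, none of which passed. In the Sscrofa11.1 annotation IFNAR1 and IFNGR2 are neighbours with no coding gene between them, and IFNAR2 lies 1 coding gene further on.

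None of the 3 kinases passed at the brightest probe. JAK1, which serves both interferon receptors and many others, differed by 0.41 ± 0.18 in hormone horns (adjusted p = 0.151). Its other 4 probes differed by 0.41 to 0.80 and all 4 passed (adjusted p 0.0102 to 0.0377), as did 3 of the 4 in placebo horns, so the call for JAK1 depends on the probe. TYK2, the partner of JAK1 at the type I receptor, differed by 0.01 ± 0.17 (adjusted p = 0.984). JAK2, the partner of JAK1 at the interferon gamma receptor, was -2.17 at the lowest, -1.45 at the median and -0.76 at the highest in hormone horns. It was -1.20, -1.30, -1.07, -0.91 and -0.39 in placebo horns, and -1.31 to -0.45 with a median of -0.91 in control gilts. The hormone horns of gilts 36, 40, 41 and 44 lay below the control range, while no placebo horn did. The difference from control gilts was -0.56 ± 0.21 in hormone horns (adjusted p = 0.0910) and -0.06 ± 0.22 in placebo horns (adjusted p = 0.902). With each of the 10 gilts left out in turn, the hormone difference passed 1 time, without gilt 47 (-0.70, adjusted p = 0.0213). Without gilt 36, which had the lowest array, it was -0.42 (adjusted p = 0.176).

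All 7 STAT genes had a difference above 0 in both kinds of horn, with a median of 0.77 in hormone horns and 0.55 in placebo horns. STAT4 acts mainly in interleukin 12 signalling, STAT5A and STAT5B in prolactin, growth hormone and interleukin 2 signalling, and STAT6 in interleukin 4 signalling.

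STAT5A was -3.14 at the lowest, -2.70 at the median and -2.18 at the highest in hormone horns. Its placebo horn values were -3.24, -2.93, -3.09, -3.24 and -1.64, and the control arrays ran from -4.18 to -3.64 with a median of -3.86. Every array of a treated gilt, in either horn, lay above all 8 control arrays. The difference was 1.23 ± 0.28 in hormone horns (adjusted p = 0.0112) and 1.04 ± 0.29 in placebo horns (adjusted p = 0.0482). A second probe passed in hormone horns at 0.75 (adjusted p = 0.0436) and did not pass in placebo horns at 0.61 (adjusted p = 0.135). Without gilt 47 the placebo difference was 0.75 and did not pass (adjusted p = 0.0885).

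STAT5B was 0.20 at the lowest, 0.73 at the median and 1.10 at the highest in hormone horns, against -0.38 to 0.07 in control gilts, with no overlap. In placebo horns it was -0.08, 0.78, 0.12, 0.04 and 1.09, and gilts 36 and 44 lay inside the control range. The difference was 0.77 ± 0.21 in hormone horns (adjusted p = 0.0276) and 0.55 ± 0.22 in placebo horns (adjusted p = 0.141), and a second probe gave 0.99 in hormone horns (adjusted p = 0.0180). STAT3, STAT5A and STAT5B follow each other in the annotation with no coding gene between them. STAT3, the main factor of interleukin 6 signalling, differed by 0.33 ± 0.16 in hormone horns and did not pass (adjusted p = 0.203).

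STAT2, a factor of the type I response, differed by 0.13 ± 0.18 in hormone horns (adjusted p = 0.678), and none of its other 4 probes passed. STAT4 was -3.63 at the lowest, -2.69 at the median and -1.96 at the highest in hormone horns. Its placebo horn values were -2.84, -2.55, -3.79, -3.51 and -1.97, against -4.42 to -3.49 in control gilts. Gilt 41 lay inside the control range in both horns, and gilt 44 in its placebo horn. The difference was 1.10 ± 0.30 in hormone horns (adjusted p = 0.0241) and 0.97 ± 0.31 in placebo horns (adjusted p = 0.0702), and a second STAT4 probe gave 0.39 in hormone horns and did not pass (adjusted p = 0.366). STAT6 differed by a small amount with little spread. Its hormone horns lay between -0.98 and -0.79, its placebo horns were -0.82, -0.71, -0.87, -0.97 and -0.65, and its control arrays lay between -1.54 and -0.96. Gilt 44 in both horns and gilt 40 touched the upper end of the control range. The difference was 0.36 ± 0.11 in hormone horns (adjusted p = 0.0335) and 0.47 ± 0.11 in placebo horns (adjusted p = 0.0305). A second STAT6 probe did not pass in either kind of horn.

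**Figure D2:**
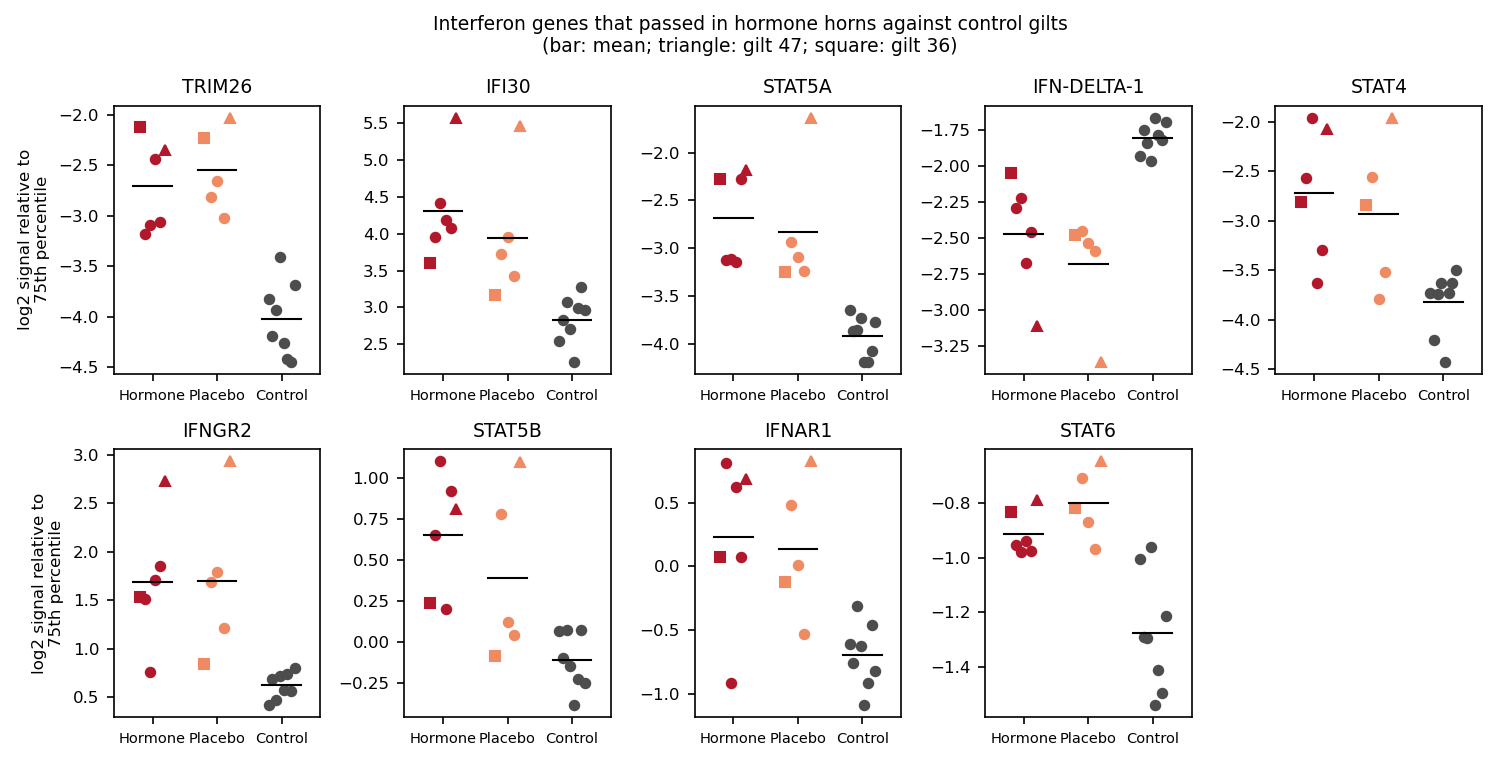
Log2 signal relative to the array's 75th percentile of 9 of the 10 interferon genes that passed in hormone horns against control gilts, 1 point for each array (6 hormone, 5 placebo and 8 control arrays), with the group mean as a bar. TRIM26 and STAT5A lie above all control arrays in both horns of treated gilts, and IFN-DELTA-1 lies below them.

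The largest differences among the genes that passed were those of IFI30 and TRIM26. IFI30, a lysosomal thiol reductase of antigen processing that interferon gamma induces and antigen presenting cells carry, was 3.60 at the lowest, 4.13 at the median and 5.57 at the highest in hormone horns. It was 3.16, 3.72, 3.96, 3.42 and 5.46 in placebo horns, and 2.27 to 3.28 with a median of 2.90 in control gilts. Hormone horns lay above all control arrays, and gilt 36 alone among the placebo horns did not. The group means were 4.30 ± 0.68 in hormone horns (SD, n = 6), 3.94 ± 0.90 in placebo horns (SD, n = 5) and 2.83 ± 0.32 in control gilts (SD, n = 4). The difference was 1.47 ± 0.30 in hormone horns, a 2.76-fold higher signal (adjusted p = 0.00641), and 1.12 ± 0.31 in placebo horns (adjusted p = 0.0469). Its second probe passed in both. The highest value in each kind of horn came from gilt 47. The linear signal of the 12 macrophage and dendritic cell markers was also summed, in multiples of the 75th percentile, so bright probes weigh most. The sum was 28.9 to 227 in hormone horns, 30.5 to 256 in placebo horns and 17.4 to 29.1 in control gilts. Without gilt 47 the sum reached 49.6 in hormone horns and 54.2 in placebo horns, and its part in the IFI30 values was not tested. Without gilt 47, the IFI30 difference was 1.21 in hormone horns (adjusted p = 0.00121) and 0.77 in placebo horns, where it no longer passed (adjusted p = 0.0590).

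TRIM26, a ubiquitin ligase that acts on antiviral signalling, was -3.18 at the lowest, -2.75 at the median and -2.12 at the highest in hormone horns. Its placebo horn values were -2.23, -2.81, -2.65, -3.02 and -2.03, against -4.44 to -3.40 with a median of -4.06 in control gilts. Neither kind of horn overlapped the controls. The difference was 1.31 ± 0.21 in hormone horns, a 2.48-fold higher signal (adjusted p = 0.00226), and 1.43 ± 0.21 in placebo horns, a 2.69-fold higher signal (adjusted p = 0.00779). A second TRIM26 probe differed by 0.46 in hormone horns (adjusted p = 0.198) and 0.30 in placebo horns (adjusted p = 0.448), and passed in neither. In the annotation TRIM31, TRIM40, TRIM10, TRIM15 and TRIM26 follow each other with no other coding gene between them. The other 4 of these differed by -0.01 to 0.29 in hormone horns and none passed, nor did TRIM21, TRIM39, TRIM45 or TRIM50. For TRIM21 and TRIM31 the 2 probes of the gene differed in sign.

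The other 13 antiviral effectors and induced genes did not pass in any of the comparisons. MX1, a GTPase that blocks viral replication, was 4.25 at the lowest, 5.22 at the median and 5.92 at the highest in hormone horns. It was 4.29, 6.02, 5.57, 4.95 and 5.44 in placebo horns, and 4.72 to 6.20 with a median of 5.39 in control gilts. Gilt 36 lay below the control range in both horns, and all other treated gilts lay within it. The difference was -0.25 ± 0.29 in hormone horns (adjusted p = 0.626), with a 95% interval of -0.87 to 0.37, and -0.21 ± 0.30 in placebo horns (adjusted p = 0.708). The other 4 MX1 probes differed by -0.26 to 0.06 in hormone horns.

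ISG15, a ubiquitin-like protein, differed by -0.38 ± 0.35 in hormone horns, with a 95% interval of -1.13 to 0.36. RSAD2, or viperin, differed by -0.73 ± 0.44, and its hormone horn of gilt 36, at -2.70, lay below all other arrays. A second RSAD2 probe differed by -0.23 in hormone horns. Without gilt 36 the RSAD2 difference was -0.34 (adjusted p = 0.578). OAS2, an oligoadenylate synthetase that activates RNA decay, was 3.82 at the lowest, 4.49 at the median and 5.00 at the highest in hormone horns. It was 4.20, 4.80, 4.93, 5.13 and 5.09 in placebo horns, and 4.51 to 5.65 with a median of 5.20 in control gilts. The difference was -0.68 ± 0.24 in hormone horns (adjusted p = 0.0771) and -0.38 ± 0.25 in placebo horns (adjusted p = 0.371), and the other 4 OAS2 probes differed by -0.37 to -0.04 in hormone horns.

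EIF2AK2, a kinase that halts translation in infected cells, differed by -0.56 ± 0.25 in hormone horns (adjusted p = 0.150). USP18, which removes ISG15 from proteins, differed by -0.52 ± 0.35 (adjusted p = 0.363), with 0.07 at its second probe. IFIT1 and IFIT3, which bind viral RNA, differed by -0.31 ± 0.36 and 0.31 ± 0.28, and their second probes by 0.01 and 0.23. MX2 differed by 0.04 ± 0.33. Without gilt 36 the hormone difference was -0.06 for MX1, -0.19 for ISG15, 0.02 for IFIT1, -0.37 for EIF2AK2 and 0.23 for MX2, and none of them passed. Without gilt 47 it was -0.21 for MX2 and 0.19 for IFIT3. The other induced genes, BST2, IFI44, ISG12(A) and OASL, differed by -0.35 to 0.11. The RNA sensors IFIH1 and DHX58 differed by -0.08 ± 0.32 and -0.12 ± 0.14.

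**Figure D3:**
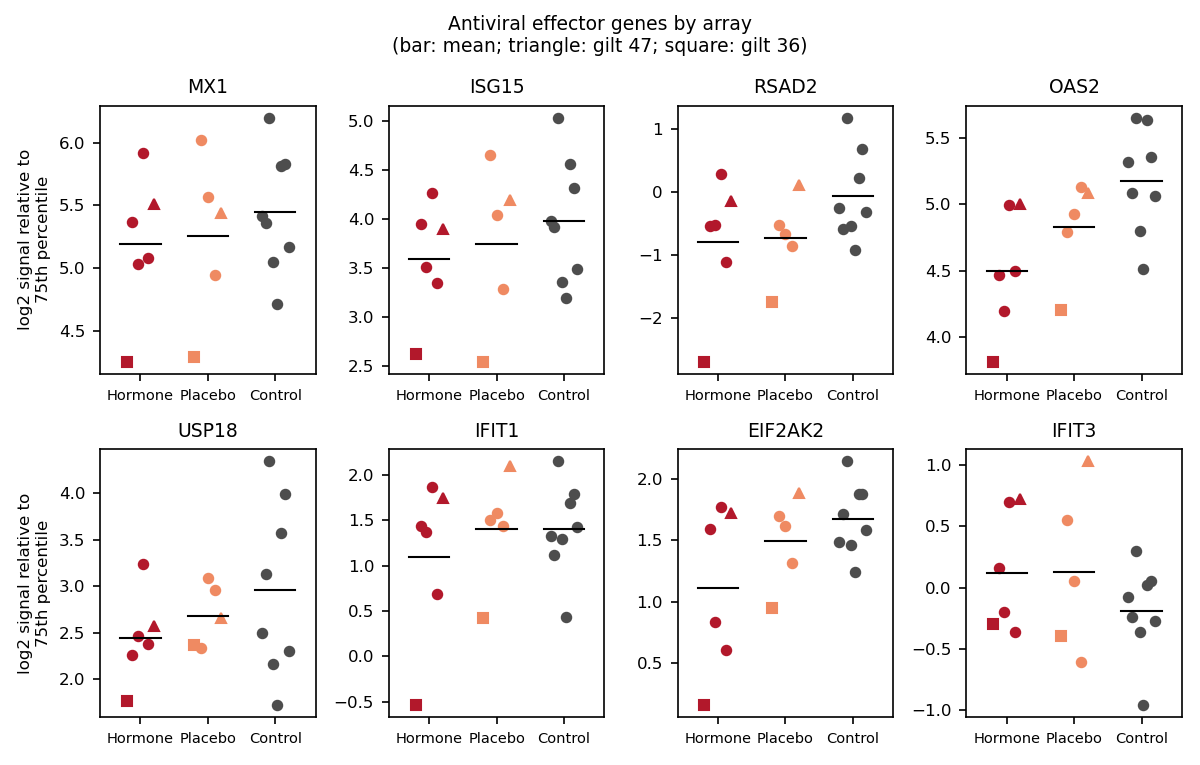
Log2 signal relative to the array's 75th percentile of 8 antiviral effector genes, 1 point for each array (6 hormone, 5 placebo and 8 control arrays), with the group mean as a bar. The groups overlap in each gene, and the hormone horn of gilt 36 (square) is the lowest array for MX1, RSAD2, OAS2, IFIT1 and EIF2AK2.

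Among the 57 genes, GBP1 had the largest difference that did not pass in both kinds of horn. GBP1, a GTPase of cell defence that interferon gamma induces, was 0.91 at the lowest, 1.48 at the median and 4.26 at the highest in hormone horns. It was 1.04, 1.66, 1.83, 1.42 and 4.69 in placebo horns, and 0.28 to 1.25 with a median of 0.80 in control gilts. Both horns of gilt 47 and the hormone horn of gilt 41, at 2.99, stood apart from the others. The difference was 1.31 ± 0.52 in hormone horns (adjusted p = 0.107) and 1.24 ± 0.54 in placebo horns (adjusted p = 0.170). Without gilt 47 it was 0.87 in hormone horns and 0.64 in placebo horns, and still did not pass.

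GBP2, its neighbour in the annotation, differed by 0.27 ± 0.37 in hormone horns, and by -0.03 without gilt 47. IRF1, a transcription factor of the interferon gamma response, was -0.02 at the lowest, 0.63 at the median and 2.56 at the highest in hormone horns. It was 0.59, 0.40, 2.21, 0.41 and 2.59 in placebo horns, and -0.29 to 0.52 in control gilts. The high values belonged to both horns of gilt 47, the placebo horn of gilt 41 and, at 1.12, its hormone horn. The difference was 0.83 ± 0.39 in hormone horns (adjusted p = 0.176) and 1.06 ± 0.40 in placebo horns (adjusted p = 0.121). Without gilt 47 it was 0.50 in hormone horns (adjusted p = 0.297) and 0.75 in placebo horns (adjusted p = 0.202). IRF3, IRF7 and IRF9 differed by -0.25 to 0.21 in hormone horns. For IRF3 a second probe differed by 0.60 and passed (adjusted p = 0.0108), as it did in placebo horns at 0.70 (adjusted p = 0.0210), while the brighter one gave -0.08 ± 0.11 in hormone horns. IRF2BPL, which the symbol rule also takes in and which is no interferon regulatory factor, differed by 0.21 ± 0.24.

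**Figure D4:**
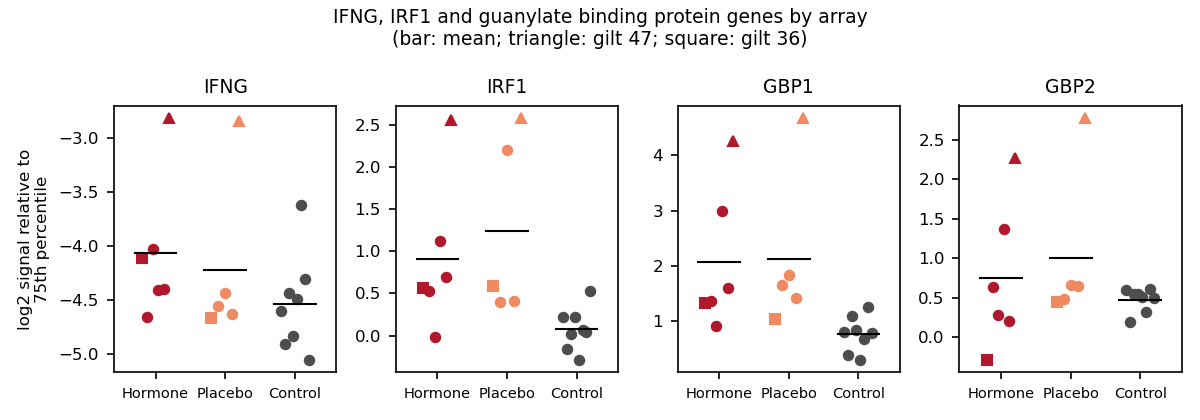
Log2 signal relative to the array's 75th percentile of IFNG, IRF1, GBP1 and GBP2, 1 point for each array (6 hormone, 5 placebo and 8 control arrays), with the group mean as a bar. Both horns of gilt 47 (triangles) are the highest arrays for each of the 4 genes.

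In placebo horns against control gilts, 6 of the 57 genes passed, beside 4.55% of all named genes measured and 4.48% of all probes. The 4 higher genes were TRIM26, IFI30, STAT5A and STAT6, and the 2 lower ones were IFN-DELTA-1 and IFN-ALPHA-4. All placebo horns carry the mark L, and with the horn mark as a term in the fit 0 of the 57 genes and 0 of the 3010 named genes passed. The median over the interferon genes was then 0.037, against 0.034 in the main fit. By limma, 14 of the 57 then had an unadjusted p under 0.05, against 19 in the main fit. In hormone horns 10 of the 57 passed with that term, beside 455 named genes. In the main fit of placebo horns, higher calls were made for 3.72% of named genes and 2.54% of probes, and lower calls for 0.831% and 1.93%. The median over the interferon genes was 0.03 there, against 0.08 over all named genes. This comparison uses the same control arrays as that of the hormone horns, so the values of both are given side by side and their likeness is not read as evidence. Of the 57 genes, 2 passed without gilt 47 and 11 without gilt 36, beside 28 and 283 of the 3010 named genes. None passed without control gilt 14 or 28, beside 1 and 0 named genes, and 1 without control gilt 9, beside 9. Without gilt 38 it was 2, beside 22 named genes, and without gilt 41 or 46 it was 3, beside 71 and 101. The counts of the set thus moved with those of all named genes. With each of the 10 gilts left out in turn, TRIM26 passed 8 times, IFN-DELTA-1 7 times, STAT6 4, STAT5A 3, IFI30 2 and IFN-ALPHA-4 1.

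Hormone horns lay above all 8 control arrays for 4 genes (IFI30, TRIM26, STAT5A and STAT5B), beside 7.97% of named genes, and below all of them for 1 (IFN-DELTA-1), beside 1.23%. Placebo horns lay above all control arrays for 3 genes (TRIM26, STAT5A and IFNGR2), beside 5.35%, and below them for 3 (IFN-DELTA-1, IFN-ALPHA-4 and IFN-DELTA-9), beside 1.13%.

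Setting the hormone horn against the opposite, placebo horn within a gilt asks for a local effect of the infused hormones. No interferon gene passed (0 of 57, beside 0.0% of named genes and 0.00256% of all probes, which was 1 probe). Limma gave an unadjusted p under 0.05 for 3 of them: JAK2, IFNE and IFN-DELTA-9. It did so for 363 of the 3010 named genes, a larger share than in the set. With the gilt as a fixed block, 0 of the 57 genes passed, beside 3 of the 3010 named genes. Limma then gave an unadjusted p under 0.05 for 5 of the 57, beside 367 named genes. In the main fit, the 95% interval of the horn difference lay within -1 and 1 for 54 of the 57 genes and within -0.5 and 0.5 for 28. JAK2 differed by -0.96, 0.04, -0.36, -0.87 and -0.37 between the horns of gilts 36, 38, 41, 44 and 47, lower in the hormone horn in 4 of 5. The fitted difference was -0.50 ± 0.15, with a 95% interval of -0.82 to -0.19 (adjusted p = 0.290). IFNE differed by -1.51, -0.68, -0.13, -0.77 and -0.16 in the same gilts, lower in all 5, with a fitted difference of -0.58 ± 0.25 (adjusted p = 0.471). IFI30 was higher in the hormone horn in all 5 gilts, by 0.43, 0.23, 0.23, 0.66 and 0.11, with a fitted difference of 0.34 ± 0.21 (adjusted p = 0.576). For MX1 the fitted difference was -0.04 ± 0.21, with a 95% interval of -0.48 to 0.39.

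Since the hormone horns were mostly marked P and the placebo horns L, the difference between horns marked P and L in control gilts was set against it. The horn difference had 1 sign in all 5 treated gilts for 5 of the 57 genes, 2 above 0 and 3 below, and in all 4 control gilts for 10, 3 above 0 and 7 below. By chance, 1 sign in all of 4 gilts is more frequent than in all of 5, so these counts are not comparable. The share over all named genes was not counted, so neither count is read as an effect. The difference between the treated and the control horn differences passed for 0 of 57 genes, beside 0.0% of all probes. By limma 1 gene, JAK2, had an unadjusted p under 0.05, beside 115 of the 3010 named genes. For JAK2 it was -0.69 ± 0.23 (adjusted p = 0.998), the control gilts differing by 0.40, 0.39, -0.11 and 0.07.

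**Figure D5:**
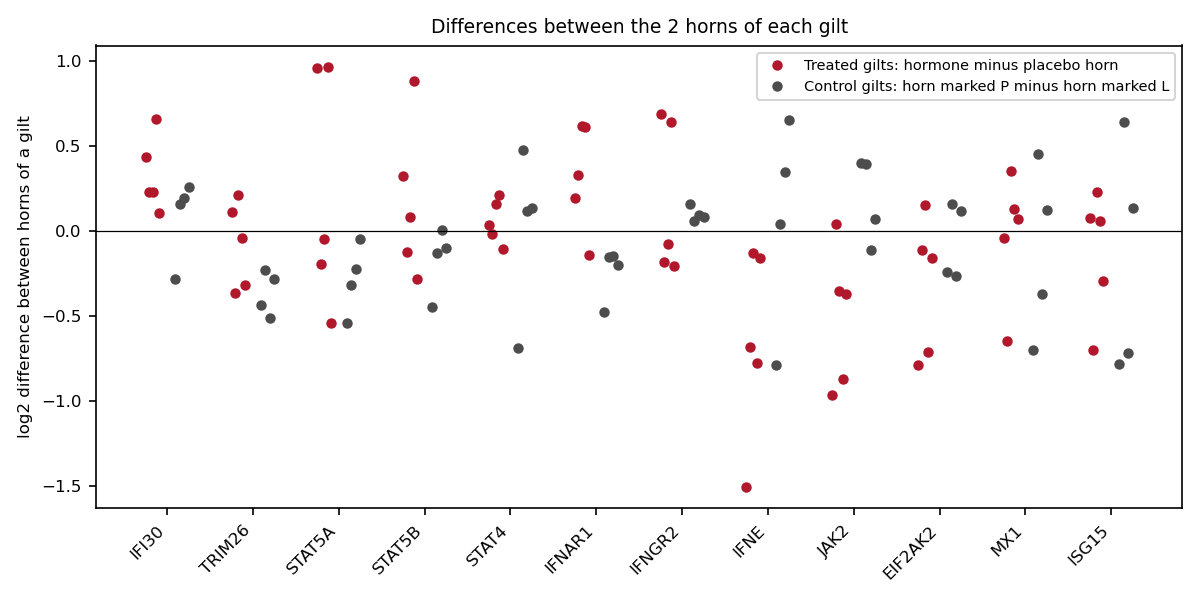
Log2 difference between the 2 horns of each gilt for 12 interferon genes: hormone minus placebo horn in 5 treated gilts (red) and horn marked P minus horn marked L in 4 control gilts (grey). IFI30 is above 0 in all 5 treated gilts and in 3 of the 4 control gilts, and IFNE is below 0 in all 5 treated gilts.

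Several antiviral effectors varied together across animals. Over the 10 gilts, with the horns of a gilt averaged, MX1 correlated with ISG15 at r = 0.988 and rho = 0.927 (permutation p after Benjamini-Hochberg over 7 relations 0.000560 and 0.00112). Without gilts 36 and 28, which had the lowest and the highest MX1 signal, r was 0.964. Gilt 36, a treated gilt, had an MX1 mean of 4.27 and an ISG15 mean of 2.58, and gilt 28, a control gilt, 6.02 and 4.67. Within the 6 treated gilts r was 0.990, and 4 control gilts are too few for a value. RSAD2 (r = 0.902, rho = 0.782, adjusted permutation p 0.00364 and 0.0259), IFIT1 (r = 0.899, rho = 0.867, 0.00467 and 0.00763) and OAS2 (r = 0.779, rho = 0.733, 0.0153 and 0.0380) also tracked MX1. Without these 2 gilts r was 0.647, 0.680 and 0.400, so each of these relations rests in part on them, and that of OAS2 the most. USP18 gave r = 0.736 (adjusted permutation p = 0.00889) and rho = 0.648 (0.0699), with r = 0.560 without gilts 36 and 28. Leaving out the extremes of MX1 also narrows its range, which by itself can lower r, and no test was run on the remaining gilts. IRF1 gave r = 0.145 and rho = -0.0303 with MX1 over the 10 gilts (adjusted permutation p 0.708 and 0.942), with r = 0.438 without gilts 36 and 28 and 0.441 within the treated gilts.

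Other genes of the interferon pathway, listed by role, were measured for 45 genes. In hormone horns 5 of them passed, all higher, beside 13.2% of named genes called higher, and in placebo horns 3 passed, beside 3.72%. The median difference over the 45 genes was 0.49 in hormone horns and 0.52 in placebo horns. For the 26 induced genes among them, the median per array above the control mean was 1.96 and 2.06 in the hormone and placebo horns of gilt 47. It was 0.01 to 0.85 in the other hormone horns, 0.06 to 0.61 in the other placebo horns and -0.33 to 0.22 in control gilts. MYD88, the adaptor of most Toll-like receptors, was higher by 1.10 ± 0.26 (adjusted p = 0.0136). NFKBIA, the inhibitor of NF-kappa-B and a target of it, was higher by 1.13 ± 0.35, SERPING1, the inhibitor of complement C1, by 0.97 ± 0.28, C1S by 0.81 ± 0.25 and the death receptor FAS by 0.61 ± 0.19. The 3 in placebo horns were all higher, among them MYD88 (1.24) and FAS (0.80). The chemokines CXCL9, CXCL10 and CXCL11, which interferon gamma induces, differed by 0.98 ± 0.98, 0.91 ± 1.01 and 1.91 ± 1.03 in hormone horns and by 1.21 ± 1.01, 2.08 ± 1.04 and 2.48 ± 1.06 in placebo horns, and none passed. Between the horns of treated gilts 0 of the 45 passed.

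The arrays were scanned on 3 days, and every day included hormone, placebo and control arrays. Within each day, all 9 genes that passed higher in hormone horns had a difference above 0, and IFN-DELTA-1 was below 0. These genes were picked for their difference on the same arrays, so the shared signs are no independent support. Each day had 2 hormone horns, and days 1 and 3 had 1 control gilt each. IFI30 was 1.26 to 1.92 higher within a day, TRIM26 0.78 to 1.48 and STAT5A 0.87 to 1.63. One slide held both a treated and a control gilt, 36 and 9. On it the hormone horn minus the control gilt was 1.19 for IFI30, 1.92 for TRIM26 and 1.63 for STAT5A. The other slides each held treated or control gilts alone, so on them slide and group cannot be told apart. IFI30 and TRIM26 passed in hormone horns with any of the 10 gilts left out, and STAT5A did so except without control gilt 14 (adjusted p = 0.0530). The other 7 calls were each lost when control gilt 9, 14 or 28 was left out, and those of IFNGR2, IFNAR1, STAT5B and STAT6 without at least 1 further gilt. Thus 3 genes passed without gilt 9, 2 without gilt 14 and 3 without gilt 28, beside 187, 145 and 162 of the 3010 named genes. When both arrays of a control gilt were averaged into 1 value, only IFI30, TRIM26 and STAT5A passed, beside 220 of the 3010 named genes.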

How the data were processed

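Endometrial RNA of 19 samples was measured with Agilent arrays in one colour. The deposited intensity values are linear, background-subtracted and unscaled across arrays, and came from Agilent Feature Extraction 10.7.3.1 per the file headers (9.1 per the submitters' processing notes). A value table that the authors deposited holds log2 values (r from 0.996 to 0.999 with the scanner values, medians 7.72 to 7.83). How it was normalized is not stated, and it was an alternative only.

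Here, log2 of the processed signal minus log2 of the array's 75th percentile (597 to 983) was used. Between 79.1% and 88.4% of spots were well above background and 0 were saturated; the number of arrays limits the precision. Probes carry genes through their RefSeq accessions: 6876 of 43603 probes matched, 6768 of them with a named gene. A gene is represented by its probe with the highest mean; 29 interferon genes had other probes. All 39071 probes with at least 4 arrays well above background and at least 2 usable values in each group were fitted together in limma 3.58.1 (R 4.3.3), with the gilt as a random block (correlation 0.536), two-sided with Benjamini-Hochberg adjustment over all probes. Outlier values (891 among the tested) were left out. Alternatives estimated the correlation on 8000 probes. The fit was also run on data simulated from its own model, which cannot show how it handles outlying animals or slides.

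Arrays sharing a gilt number come from 1 animal. Deviations of such arrays from their group means correlated at 0.336 to 0.795 (treated) and 0.403 to 0.628 (control), against at most 0.143 and 0.0185 between different gilts. Both arrays of a gilt were also on the same slide, so gilt and slide cannot be told apart in these values. Taking off the means of such small groups also lowers the correlation between different gilts. The members, lists, tests and named genes were chosen with earlier results of these data known. Named are the genes that passed, the 5 with the largest difference in each comparison, and a list of main pathway genes; OAS2, other members given in ranges, second probes, neighbours and the CXCL chemokines were chosen after their values were seen. A few measured genes enter the counts and medians but are not reported here by name.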

Additional observations from a re-analysis of the deposited data

Results flagged for a closer look

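Among 36 named interferon genes in 3 groups (108 sets of values), 9 had 1 animal far from the others of its group, by Dixon's criterion; chance gives about 1 in 20. Of these, 6 belonged to gilt 47. Its hormone horn was the highest for IFNG, at -2.82 against -4.03 for the next. Its placebo horn was the highest for GBP1 (4.69, next 1.83), GBP2 (2.78, next 0.66), IFNG (-2.85, next -4.43) and STAT5A (-1.64, next -2.93), and the lowest for IFN-DELTA-1 (-3.36, next -2.59). The hormone horn of gilt 36 held 2 more, the highest IFNAR2 (9.37, next 8.92) and the lowest IFNE (-1.56, next 0.20). In control gilts, STAT5B was highest in gilt 28, at a gilt mean of 0.073 against -0.16 for the next. Gilt 47 also had the highest T cell, macrophage and B cell marker medians, whose part in these values was not tested.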

How the results depend on the processing

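The count of interferon genes passing was 10 in hormone horns and 6 in placebo horns. It was 3 and 1 with control horns averaged per gilt, 17 and 12 with the slide as the random block, and 12 and 9 with no replicate block. Named genes passing moved in the same directions: of 3010, 468 passed in hormone horns, and 220, 794 and 662 under these settings, and 137 passed in placebo horns, and 9, 460 and 333 under them. In placebo horns the count of interferon genes was 0 with the horn mark as a term and 1 with only the groups compared. It was 2 when gilt 47 and the array of gilt 36's hormone horn were dropped. Under these settings 0, 2 and 24 of the 3010 named genes passed. Within a scan day few arrays remained. Days 1 and 3 had 1 control gilt each and day 2 had 1 placebo horn, so counts within days are not given. With 1 gilt left out the count of interferon genes was 2 to 12 in hormone horns and 0 to 11 in placebo horns. Named genes passing were then 145 to 484 and 0 to 283 of 3010. Between the horns of treated gilts, and for the horn difference against control gilts, it was 0 in every setting run, including no replicate block and the gilt as a fixed replicate block. The median log2 difference ran from -0.03 to 0.12 in hormone horns and 0.01 to 0.19 in placebo horns with 1 gilt left out, -0.05 to 0.06 between horns and -0.03 to 0.12 for the horn difference. Within scan day 3 it was 0.18 in hormone horns, 0.41 in placebo horns and -0.16 between horns, where day 1 gave 0.17. The causes were not tested. Of the single-gene values under alternatives, 3525 kept their side of the threshold, 160 lost a call and 23 gained one. A value without a call counted as kept even when its sign changed. Of those kept, 972 were between the horns of treated gilts and 792 for the horn difference against control gilts, which had no call to lose. Hormone horns lost 78 calls and placebo horns 82, where the main fit called only 10 and 6 genes. The within-day fits and the fit that dropped these arrays were added after seeing the data. The planned correction by normexp on mean signals was not run; normexp on median signals took its place. IFN-OMEGA-7 and TRIM10, dim on most arrays or some, are limited by signal over background.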
